A study of Mus musculus with 6 samples.

Results

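Zfp genes carry the mouse symbol for zinc finger protein, and many of them stand side by side on the chromosome. A gene was counted as clustered when it was an autosomal protein-coding gene with the symbol Zfp followed by digits and an optional final letter, and its start lay within 100 kb of the start of another such gene. The choice used only symbols and positions, not peaks. It gave 211 clustered Zfp genes in 49 clusters on 13 chromosomes, of 386 autosomal Zfp genes and 21887 protein-coding genes in all. The other 175 autosomal Zfp genes had no such neighbour and are called lone here. Chromatin accessibility was measured by ATAC-seq, which maps open DNA by where the transposase Tn5 cuts it, in islets of 16-week-old mice, and 6 peak lists in 3 groups of 2 were used. The knockout-Acsl4 islets came from mice without Rictor in beta cells (βRicKO) and received an adenovirus carrying Acsl4. The knockout-GFP islets came from βRicKO mice and received a GFP adenovirus, and the control-GFP islets came from control mice, labelled wildtype, and received the same GFP virus. Rictor is a core subunit of mTORC2, a kinase complex upstream of AKT, and Acsl4 is an enzyme that couples polyunsaturated fatty acids to coenzyme A. Every group therefore carried an adenovirus for 48 h in culture, and the 2 knockout groups shared the Rictor deletion. The labels name neither the promoter that drives the deletion nor the number of mice. Whether replicate libraries stem from different mice is also unstated, so the spread between them may be technical.

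Most mouse zinc finger genes of this kind arose by tandem duplication, which left arrays of related genes next to each other. Their proteins read DNA through repeated C2H2 fingers, and many also carry a KRAB domain, which recruits the corepressor Trim28. Trim28 in turn brings the histone methyltransferase Setdb1 and the heterochromatin proteins Cbx1, Cbx3 and Cbx5, and this machinery keeps retrotransposons silent and helps to maintain imprints. The symbol Zfp alone does not say whether a protein has a KRAB domain. An accessible promoter is a common feature of active genes and is not a measure of transcription.

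A gene was called marked in a library when a peak overlapped the 1000 bp on either side of its start or end. The libraries differed widely in what they could mark. The knockout-Acsl4 lists held 525 and 5874 peaks, the knockout-GFP lists 2206 and 4257, and the control-GFP lists 4442 and 1628. The share of peaks at gene ends was 67.2% to 75.5% in both knockout-GFP libraries and control-GFP 1, and 5.29% to 35.8% in the other 3. In knockout-Acsl4 2, 59.1% of peaks had a score under 2, where the score is the deposited value of a peak, read as −log10 of its q-value. No source used here gives the read depth. As a check of the tissue, 2 of 10 beta cell genes, Nkx6-1 and Mafa, were marked, each in knockout-GFP 2 and control-GFP 1, while Ins1 and Ins2, the insulin genes, carried no peak. Of all protein-coding genes 24.5% were marked in at least 1 library, so 2 of 10 does not set beta cell genes apart. None of 21 marker genes of other endocrine, acinar, ductal, endothelial, stromal and immune cells was marked, so the lists do not show which cells the accessible Zfp promoters came from. In bulk islets, fewer cells of a type and less accessible DNA per cell cannot be told apart.

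Both clustered Zfp genes and genes in general were marked most in knockout-GFP 2 and control-GFP 1 and least in both knockout-Acsl4 libraries and control-GFP 2. In the knockout-Acsl4 libraries 0 and 3 of the 211 genes were marked, which is 0% and 1.42%, against 1.02% and 1.58% of all protein-coding genes. In the knockout-GFP libraries 10 and 30 were marked, 4.74% and 14.2%, against 8.20% and 17.3% of all genes. In the control-GFP libraries 49 and 4 were marked, 23.2% and 1.90%, against 16.7% and 2.00% of all genes. Control-GFP 1 was thus the library with the highest clustered share, though not the highest share of all genes, and the only one in which clustered genes exceeded all genes. The exact Clopper-Pearson 95% interval of the clustered share reached from 0% to 1.73% in knockout-Acsl4 1 and from 0.294% to 4.10% in knockout-Acsl4 2. It reached from 2.30% to 8.54% in knockout-GFP 1, from 9.80% to 19.7% in knockout-GFP 2, from 17.7% to 29.5% in control-GFP 1 and from 0.519% to 4.78% in control-GFP 2. These intervals cover counting error only and treat the genes as independent, which neighbours in a cluster are not.

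Clustered genes were marked less often than lone genes in 6 of 6 libraries, by a margin that was small beside its spread. Of the 175 lone genes, 1 and 3 were marked in the knockout-Acsl4 libraries (0.571% and 1.71%). In the knockout-GFP libraries 16 and 36 lone genes were marked (9.14% and 20.6%), and in the control-GFP libraries 41 and 7 (23.4% and 4.0%). The clustered share minus the lone share averaged −2.32 percentage points, with an SD of 2.54 over the 6 libraries. It was −6.35 points in knockout-GFP 2, −4.40 in knockout-GFP 1 and −0.206 in control-GFP 1, and the 95% intervals of both shares overlapped in every library. With a neighbour distance of 50 kb in place of 100 kb the mean difference shrank to −0.450 points, and clustered genes were then higher in control-GFP 1. Leaving out genes with a Zfp neighbour within 500 kb from the lone set widened it to −4.03 points.

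**Figure D1:**
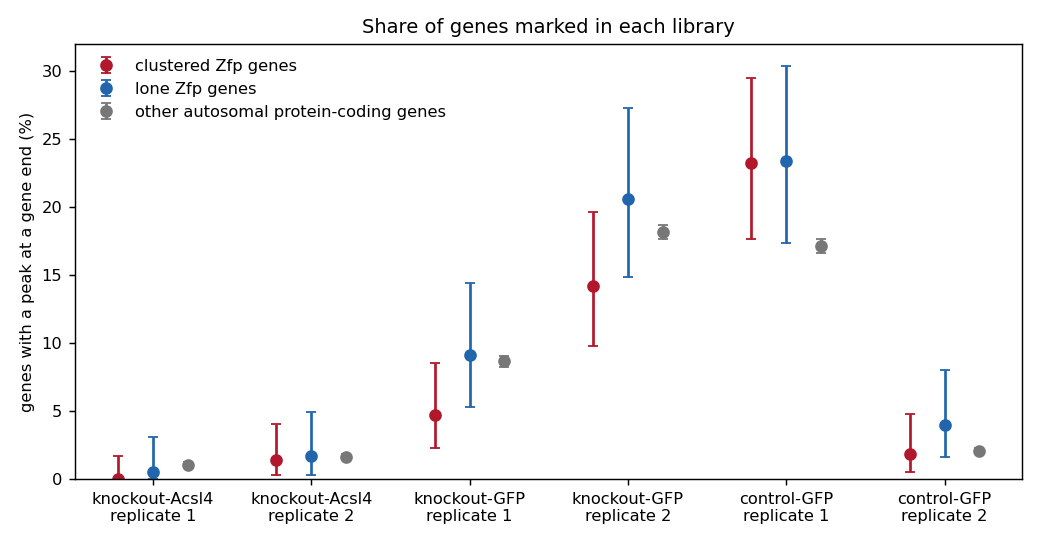
Share of genes with a peak within 1000 bp of a gene end (%), by library, for 211 clustered Zfp genes, 175 lone Zfp genes and 20279 other autosomal protein-coding genes; points are shares and bars are exact 95% intervals for counting error. All 3 sets of genes are high in knockout-GFP 2 and control-GFP 1 and below 5% in both knockout-Acsl4 libraries and control-GFP 2.

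The groups did not separate on this measure beyond the spread within them, except that both knockout-Acsl4 libraries were low. The clustered share averaged 0.711% ± 1.01 in knockout-Acsl4 islets, 9.48% ± 6.70 in knockout-GFP islets and 12.6% ± 15.1 in control-GFP islets (SD, n = 2 each). Over all genes the means were 1.30% ± 0.391, 12.8% ± 6.44 and 9.34% ± 10.4 in the same order, so knockout-GFP islets were below control-GFP islets for clustered genes and above them for all genes. The clustered difference between knockout-GFP and control-GFP islets was smaller than the SD within either group, since control-GFP held both the highest library and 1 of the 3 lowest. Both knockout-Acsl4 libraries lay below both knockout-GFP libraries, and the share over all genes had the same order. For 2 libraries against 2 an exact two-sided permutation test cannot give a p below 0.333, so no test was made.

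Few clustered genes were marked in several libraries. No peak was found at 149 of the 211 genes in any library, 35 were marked in 1 library, 22 in 2, 3 in 3 and 2 in 4. At least 1 mark was therefore found at 62 clustered genes, or 29.4%, against 24.5% of all protein-coding genes and 33.1% of lone genes. Marks in 2 or more libraries were found at 27 clustered genes (12.8%, against 13.9% of all genes), and in 3 or more at 5 (2.37%, against 6.52%). Marks in 4 or more were found at 2 clustered genes, which is 0.948%, against 1.62% of all genes and 2.86% of lone genes. No clustered gene was marked in more than 4 libraries, and none in knockout-Acsl4 1.

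The 2 genes marked in 4 libraries were Zfp78 and Zfp869, each in all 4 libraries of the knockout-GFP and control-GFP groups and without a peak in knockout-Acsl4 islets. Zfp719 and Zfp868 were marked in both knockout-GFP libraries and in control-GFP 1, and Zfp524 in knockout-GFP 2 and both control-GFP libraries. The promoters of Zfp78, Zfp869, Zfp719 and Zfp868 are shown because, among the clustered genes marked in most libraries, these had a peak that overlapped a listed promoter. Those of Zfp708 and Zfp759 are shown beside them because they are the first members, by position, of the largest cluster with no peak in any library. Each sequence is the RefSeq GRCm38.p6 promoter of 300 bases, from 250 before to 50 after a listed gene start, written 5′ to 3′ on the strand of the gene, and capitals mark matches to any of 7 promoter motifs searched on both strands.
Zfp78, chr7:6363058-6363357, plus strand: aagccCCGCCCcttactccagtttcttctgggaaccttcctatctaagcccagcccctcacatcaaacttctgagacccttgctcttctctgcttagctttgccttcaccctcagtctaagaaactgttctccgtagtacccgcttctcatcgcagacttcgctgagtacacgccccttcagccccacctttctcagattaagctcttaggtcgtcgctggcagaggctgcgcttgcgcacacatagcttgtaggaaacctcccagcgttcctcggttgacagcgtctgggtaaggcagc
Zfp869, chr8:69716853-69717152, minus strand: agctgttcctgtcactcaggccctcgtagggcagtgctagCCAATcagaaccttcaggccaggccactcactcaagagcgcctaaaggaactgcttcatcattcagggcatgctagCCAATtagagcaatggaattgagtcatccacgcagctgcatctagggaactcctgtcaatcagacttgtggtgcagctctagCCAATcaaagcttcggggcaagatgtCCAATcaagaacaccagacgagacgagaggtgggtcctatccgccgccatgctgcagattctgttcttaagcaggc
Zfp719, chr7:43579336-43579635, plus strand: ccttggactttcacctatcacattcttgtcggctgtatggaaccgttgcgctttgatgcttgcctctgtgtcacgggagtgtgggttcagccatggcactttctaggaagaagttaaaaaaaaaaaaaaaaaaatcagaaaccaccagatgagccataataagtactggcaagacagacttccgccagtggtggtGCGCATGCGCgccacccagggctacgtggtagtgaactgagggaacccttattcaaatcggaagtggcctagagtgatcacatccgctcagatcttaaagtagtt
Zfp868, chr8:69625499-69625798, minus strand: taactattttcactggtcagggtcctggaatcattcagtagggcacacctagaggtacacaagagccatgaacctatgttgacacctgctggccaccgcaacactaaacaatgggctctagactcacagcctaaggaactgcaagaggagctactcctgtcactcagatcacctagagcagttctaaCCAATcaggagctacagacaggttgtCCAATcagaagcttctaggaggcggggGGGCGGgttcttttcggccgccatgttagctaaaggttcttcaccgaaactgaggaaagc
Zfp708, chr13:67097927-67098226, minus strand: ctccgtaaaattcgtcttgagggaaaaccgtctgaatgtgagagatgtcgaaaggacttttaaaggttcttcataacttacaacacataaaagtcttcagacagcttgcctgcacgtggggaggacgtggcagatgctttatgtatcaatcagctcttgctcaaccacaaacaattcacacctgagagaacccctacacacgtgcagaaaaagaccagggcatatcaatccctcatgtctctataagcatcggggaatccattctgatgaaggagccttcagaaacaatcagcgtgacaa
Zfp759, chr13:67127978-67128277, plus strand: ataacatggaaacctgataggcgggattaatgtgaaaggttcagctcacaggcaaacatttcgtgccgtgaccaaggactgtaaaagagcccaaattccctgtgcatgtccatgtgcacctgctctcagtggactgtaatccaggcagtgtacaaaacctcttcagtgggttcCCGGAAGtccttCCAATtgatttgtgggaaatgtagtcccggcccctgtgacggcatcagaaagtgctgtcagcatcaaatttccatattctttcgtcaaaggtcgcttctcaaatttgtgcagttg

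Zfp78 (chromosome 7, 6362809 to 6382606) had the highest score of any clustered gene in both knockout-GFP libraries and in control-GFP 1. They spanned 6362470 to 6363041 in knockout-GFP 1 with a score of 13.1, and 6362483 to 6363107 in knockout-GFP 2 with a score of 24.02. In control-GFP islets they spanned 6362469 to 6363316 with a score of 25.5 in library 1, and 6362739 to 6363032 with a score of 2.89 in library 2. These peaks ranked at the 94.4th, 96.8th, 96.2nd and 63.4th percentile of score in knockout-GFP 1, knockout-GFP 2, control-GFP 1 and control-GFP 2. All 4 covered the outer gene end at 6362809. Those of knockout-GFP 1, knockout-GFP 2 and control-GFP 2 ended before the listed start at 6363308, which the peak of control-GFP 1 reached, and only those of knockout-GFP 2 and control-GFP 1 overlapped the printed window. That window holds a single motif match, CCGCCC at position −245, the reverse complement of GGGCGG, where the base at the listed start is position +1 and the base before it −1. A second knockout-GFP 2 peak, at 6383183 to 6383478, lay at the far end of Zfp78 and at the start of its neighbour Zfp28, which was marked in that library only.

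Zfp869 (chromosome 8, 69705137 to 69717068) carried its peaks on the printed promoter. They spanned 69716516 to 69716859 in knockout-GFP 1 and 69716868 to 69717172 in knockout-GFP 2, with scores of 4.003 and 12.2. They spanned 69716839 to 69717233 in control-GFP 1 and 69716931 to 69717087 in control-GFP 2, with scores of 14.4 and 3.21. The peak of knockout-GFP 1 lay inside the gene and did not overlap that of knockout-GFP 2, so the mark in these 2 libraries was not the same stretch of DNA. The other 3 peaks overlapped the upstream bases. The printed sequence holds CCAAT, the core bound by the factor NF-Y, at positions −210, −134, −52 and −26. Zfp869 was the only member of the 181 with a promoter that held 4 copies, and 7 clustered genes held 3 or more.

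The printed promoter of Zfp868, which bounds the same chromosome 8 cluster, holds CCAAT at −63 and −37 and GGGCGG at −10. Its peak had a score of 5.92 in knockout-GFP 1 and 6.39 in knockout-GFP 2, against 13.9 in control-GFP 1. At Zfp719, on chromosome 7, the score was 6.07 in knockout-GFP 1 and 8.82 in knockout-GFP 2, against 13.9 in control-GFP 1. Zfp719 held the palindromic motif of NRF1, in capitals in its sequence, at −55. At Zfp868 the peaks of all 3 libraries covered the listed start. At Zfp719 those of knockout-GFP 2 and control-GFP 1 did, while that of knockout-GFP 1 began just inside the gene, and the NRF1 motif lay outside all 3. Scores belong to their own list, so the higher values of control-GFP 1 are no measure of a change between groups.

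Matches to the motifs were found in marked and unmarked promoters alike, and no 2 matches overlapped in the printed sequences. CCAAT or its reverse complement was present in 51.4% of 181 clustered promoters, 46.9% of 143 lone promoters and 39.0% of all 17492 promoters in the table. Among clustered genes it was present in 54.7% of the 53 marked and 50.0% of the 128 unmarked promoters. GGGCGG, the box of SP and KLF factors, was present in 38.1% of clustered, 51.7% of lone and 46.3% of all promoters, and in 49.1% of marked against 33.6% of unmarked clustered ones. The ETS motif CCGGAAG was found in 18.8% of clustered, 26.6% of lone and 11.9% of all promoters. TGACGTCA, the cyclic AMP response element, was found in 3.87%, 2.80% and 2.34%, and the NRF1 motif in 3.87%, 2.098% and 1.32%, in the same order. No clustered promoter held the YY1 motif or the last of the 7, a palindrome around CGCG, which 0.972% and 0.715% of all promoters held. Zfp708 held none of the 7 motifs, and Zfp759 held CCGGAAG at −77 and CCAAT at −65 with no peak, so these letters were present without a call.

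Rictor loss with GFP virus in both groups was compared first. None of the 211 clustered genes, and no lone gene, was marked in both knockout-GFP and neither control-GFP library, a pattern that 1.04% of all genes had. Zfp954 alone (chromosome 7, 7114683 to 7121476) had the opposite pattern, which 0.0914% of all genes had. Its peak spanned 7121001 to 7121522 in control-GFP 1 with a score of 5.21, and 7121183 to 7121411 in control-GFP 2 with a score of 1.80, and there was no peak in either knockout-GFP or either knockout-Acsl4 library. Those scores ranked at the 44.3rd and 21.5th percentile of their lists, in the lower part of each. Without control-GFP 2, 24 clustered genes were marked in control-GFP 1 and in neither knockout-GFP library. The same count was not made over all genes, so the 24 cannot be called particular to clustered genes.

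Added Acsl4 on the Rictor-deficient background was compared next. No clustered gene was marked in both knockout-Acsl4 and neither knockout-GFP library, against 0.00914% of all genes. The opposite pattern, both knockout-GFP and neither knockout-Acsl4, was found at 4 clustered genes, or 1.90%, against 5.79% of all genes, and at 8 lone genes. The 4 were Zfp78, Zfp719, Zfp868 and Zfp869, all described above. Leaving out knockout-GFP 1 raised the 4 to 29 and leaving out knockout-GFP 2 raised it to 10, so the count was set by which genes those 2 lists shared. Neither count was made over all genes.

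Knockout-Acsl4 islets were also set against control-GFP islets, which differ in both the deletion and the added gene. No clustered gene was marked in both knockout-Acsl4 and neither control-GFP library, against 0.00457% of all genes. Both control-GFP and neither knockout-Acsl4 library marked 4, against 1.32% of all genes, namely Zfp524, Zfp78, Zfp954 and Zfp869. Leaving out control-GFP 2 raised this to 49, a count that was not made over all genes. Across both knockout-Acsl4 libraries 3 clustered genes were marked in all, each in library 2 only. Their peaks were at Zfp248 (118456576 to 118456962 on chromosome 6, score 1.54), Zfp454 (50886498 to 50886940 on chromosome 11, score 3.96) and Zfp563 (33089738 to 33089938 on chromosome 17, score 1.36). The Zfp454 peak ranked at the 92.9th percentile of that list, and its midpoint lay 782 bp inside the gene. Zfp248 was also marked in knockout-GFP 2, by a different peak at 118455321 to 118455531, and the other two genes in no other library. Zfp454 was named after its values were seen.

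The 2 libraries that marked most clustered genes had many of them in common. Knockout-GFP 2 and control-GFP 1 shared 22 marked members, 73.3% of the 30 of knockout-GFP 2 and 44.9% of the 49 of control-GFP 1. Over all genes they shared 2542, which is 67.1% and 69.6% of their lists. Among lone genes they shared 25, 69.4% and 61.0%. The share of control-GFP 1 genes found again in knockout-GFP 2 was thus 44.9% of clustered genes beside 69.6% of all genes, a difference that was not tested. At 21 of the 22 shared members the peaks themselves overlapped, the exception being Zfp524. A mark in a single library was most common in control-GFP 1. In all, 23 members were marked there and in no other library, against 7 in knockout-GFP 2 alone, 3 in knockout-GFP 1 alone and 2 in knockout-Acsl4 2 alone. Marks in exactly 1 library were found at 16.6% of clustered, 16.0% of lone and 10.5% of all protein-coding genes. Their split by library was not counted over all genes, so the 23 cannot be called particular to clustered genes. All 4 members marked in control-GFP 2 were also marked in control-GFP 1, beside 79.5% over all genes. Of the 10 of knockout-GFP 1, 7 were marked in control-GFP 1, beside 75.7% over all genes. At 5 of these 7 the peaks themselves overlapped, the exceptions being Zfp668 and Zfp646. Between the knockout-GFP libraries themselves 4 members were shared, 40.0% of the 10 and 13.3% of the 30. Over all genes the shared part was 80.6% and 38.2%, and among lone genes 62.5% and 27.8%. These differences were not tested.

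Control-GFP 1 marked more clustered genes than knockout-GFP 2 among the better-scored peaks too, but not among the best of all. With the better 50% of each list by score, 11 clustered genes (5.21%) were marked in knockout-GFP 2 and 21 (9.95%) in control-GFP 1, against 9.19% and 9.41% of all genes. With every list shortened to its best 525 peaks, 1 clustered gene (0.474%) was marked in each of these 2 libraries. Of all genes 1.92% and 1.91% were then marked in knockout-GFP 2 and control-GFP 1, and of lone genes 1.14% and 4.0%. The other libraries of the same groups had the opposite order, with 10 clustered genes in knockout-GFP 1 against 4 in control-GFP 2, and over all genes too knockout-GFP 1 was higher, at 8.20% against 2.00%.

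**Figure D2:**
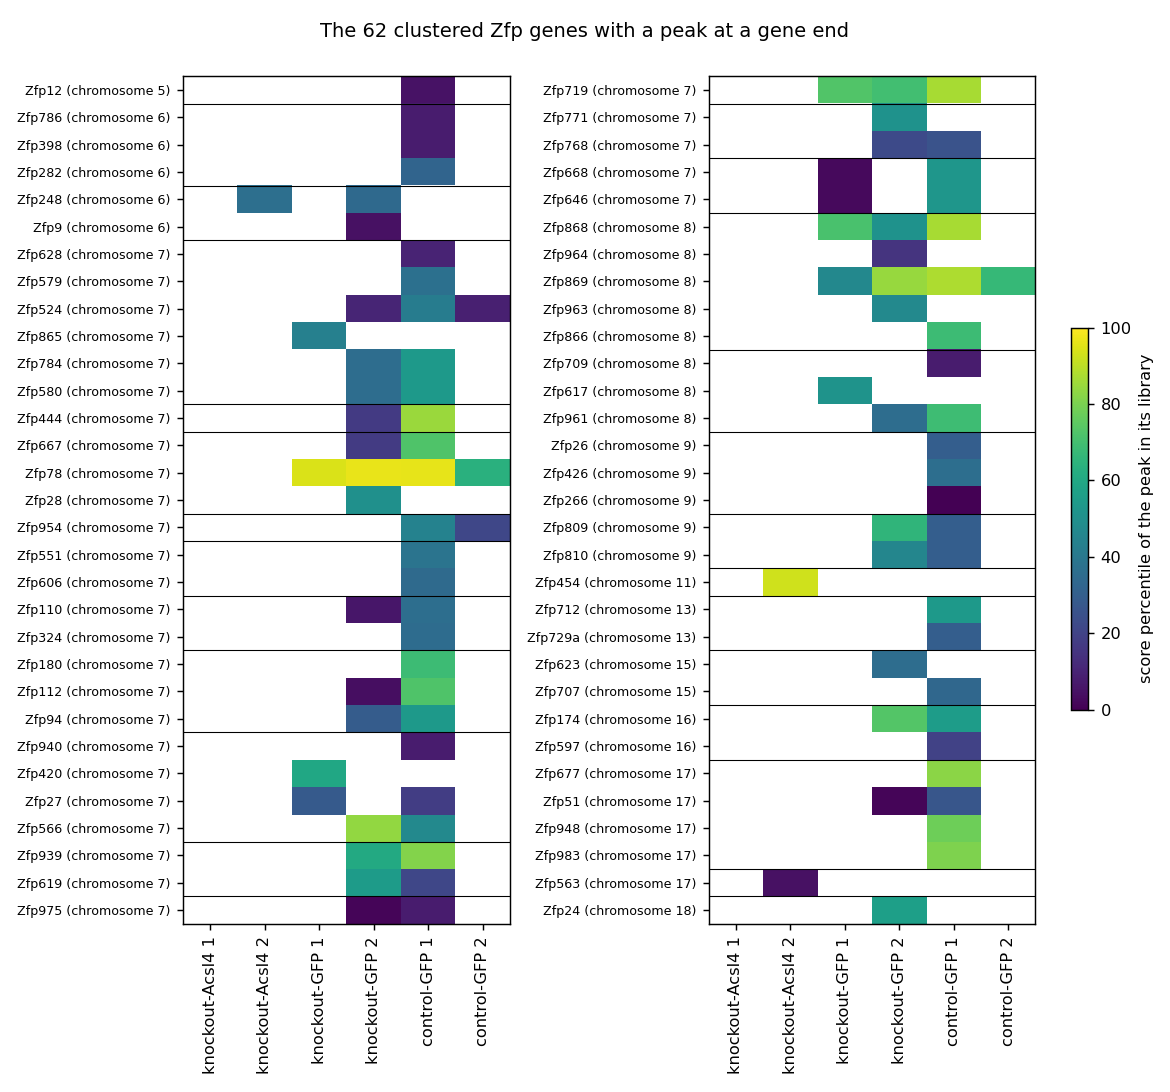
The 62 clustered Zfp genes marked in at least 1 library, by chromosome and position from top to bottom, with lines between clusters; the colour gives the score percentile of the best marking peak within its own library (0 to 100), and white means no peak. Most coloured cells stand under knockout-GFP 2 and control-GFP 1, and Zfp78 is the row with the highest percentiles.

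Some clusters carried marks at every member and others at none. Of the 49 clusters, 27 had a marked member and 22 had none, and those 22 held 60 genes. In 8 clusters, with 23 genes, every member was marked in some library. Most clusters were small, as 21 had only 2 members and the median was 3. At the pair Zfp668 and Zfp646, named for its shared peaks, 1 peak marked both genes in knockout-GFP 1 and 1 peak marked both in control-GFP 1. The peaks of the 2 libraries did not overlap. Marks at all or no members of such small clusters do not show that clusters act as units. The 6 largest clusters held 77 genes, of which 14 (18.2%) were marked, against 48 of the 134 genes (35.8%) in the other 43 clusters. The largest, from Zfp712 to Zfp273 over 788 kb of chromosome 13, had 23 members and marks at Zfp712 and Zfp729a only, both in control-GFP 1 alone. Their scores there were 6.31 and 3.92, and the other 21 members had no peak in any library.

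In the second largest cluster, Zfp84 to Zfp146 on chromosome 7, 4 of 15 members were marked. These were Zfp420 in knockout-GFP 1, Zfp27 in knockout-GFP 1 and control-GFP 1, Zfp566 in knockout-GFP 2 and control-GFP 1, and Zfp940 in control-GFP 1. Zfp568, which in mouse represses a placental transcript of the growth factor gene Igf2, belongs to this cluster and had no peak. In the cluster from Zfp677 to Zfp943 on chromosome 17, 4 of 13 were marked, with Zfp51 in knockout-GFP 2 and control-GFP 1, and Zfp677, Zfp948 and Zfp983 in control-GFP 1. The last 3 had scores of 12.0, 10.4 and 11.3, between the 77.9th and 82.8th percentile of that list. None of the other 5 libraries listed a peak at these 3 genes, control-GFP 2 included.

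The cluster from Zfp180 to Zfp94 on chromosome 7 had 3 of 10 members marked, with Zfp112 and Zfp94 in knockout-GFP 2 and control-GFP 1, and Zfp180 in control-GFP 1. The cluster from Zfp871 to Zfp563 on chromosome 17 had 1 of 8, Zfp563 in knockout-Acsl4 2. None of the 8 members from Zfp607b to Zfp850 on chromosome 7 was marked, although their promoters had a median CpG ratio of 0.740, above the clustered median of 0.583. The CpG ratio is the number of CG pairs over the number expected from the C and G content, and low values are typical of promoters that are methylated in the germline.

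The smaller clusters on chromosome 8 were the opposite case. All 5 members from Zfp868 to Zfp866, over 164 kb, were marked, 2 of them in knockout-GFP 1, 4 in knockout-GFP 2, 3 in control-GFP 1 and 1 in control-GFP 2. Their median CpG ratio of 0.412 was below the clustered median. Zfp964 and Zfp963 were marked in knockout-GFP 2 only and Zfp866 in control-GFP 1 only. Counting the second cluster there, 8 of 9 clustered genes of chromosome 8 were marked. All 6 members from Zfp628 to Zfp580 on chromosome 7 were marked too, 1 in knockout-GFP 1, 3 in knockout-GFP 2, 5 in control-GFP 1 and 1 in control-GFP 2. In that cluster the peaks of Zfp524 also touched Fiz1, and those of Zfp580 also touched Zfp784, so a single peak marked more than 1 gene. Chromosome 8 and the cluster from Zfp628 were singled out after their values were seen.

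By chromosome, marks were found at 30 of 75 clustered genes on chromosome 7 (40.0%, against 22.5% of all protein-coding genes there) and at 5 of 11 on chromosome 6 (45.5%, against 23.1%). They were found at 5 of 12 on chromosome 9 (41.7%, against 25.4%), 5 of 37 on chromosome 17 (13.5%, against 25.9%) and 2 of 25 on chromosome 13 (8.0%, against 25.9%). On chromosome 8 the share of all genes was 29.9%. None of the 20 members in the 8 clusters of chromosomes 2 and 4 was marked in any library, while 7 of 34 lone genes and 23.6% of all genes on these chromosomes were. The lone genes between Zfp965 and Zfp971 on chromosome 2 (Zfp966, Zfp967, Zfp973, Zfp970 and Zfp972) had no peak either. Neither had Zfp988 and Zfp982, the lone genes between Zfp987 and Zfp933 on chromosome 4. The absence there was thus not particular to clustered genes, while the lone Zfp335, 459 kb from Zfp663, was marked. Chromosomes 2 and 4 and these lone genes were likewise picked out after the values were seen. The 20 clustered members had a median promoter CpG ratio of 0.371. Of the 17 with a promoter, 13 shared at least 1 stretch of 50 bases with another promoter in the table. A single read of 50 bases from such a stretch matches more than 1 place. The shared part ran from 0.797% of stretches at Zfp981 and Zfp985 to 100% at Zfp968, so some of these promoters were mostly unique. The part of either property in the missing peaks was not tested.

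**Figure D3:**
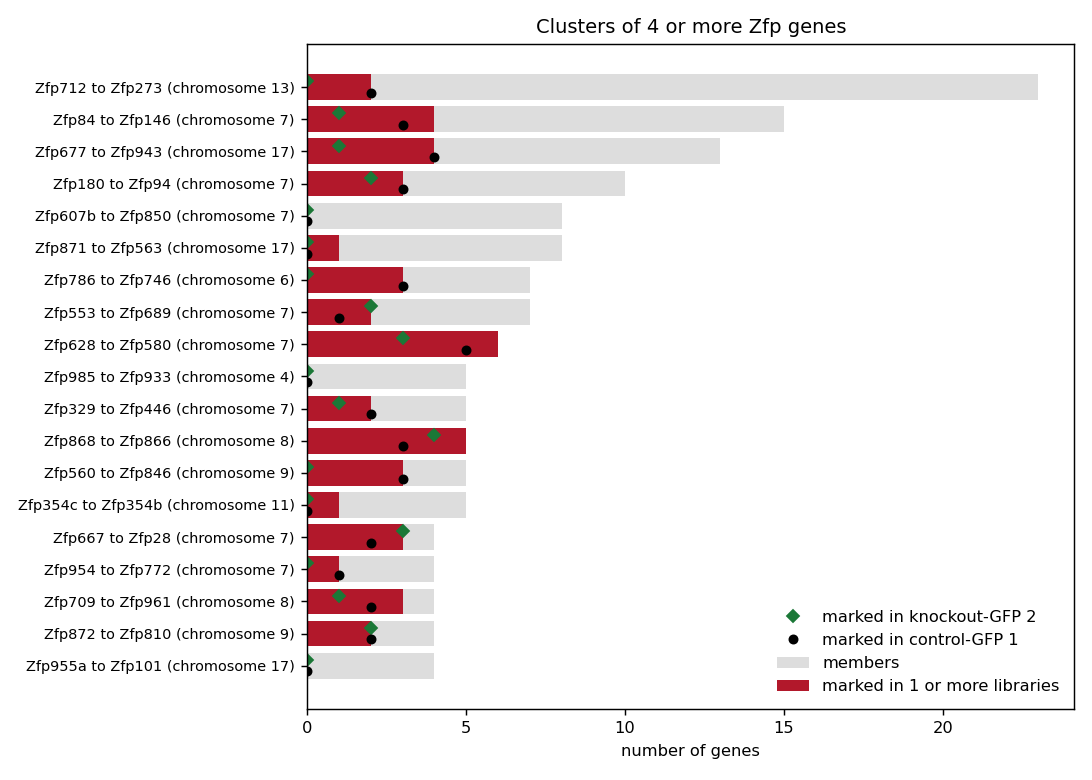
Clusters of 4 or more Zfp genes, named by their first and last gene, largest at the top; grey bars give the number of members, red bars the members marked in at least 1 library, green diamonds those marked in knockout-GFP 2 and black circles those marked in control-GFP 1. The largest cluster has 2 of 23 members marked, and the cluster from Zfp868 to Zfp866 has 5 of 5.

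Promoters that share sequence with others carried few peaks. At the 151 clustered genes whose promoter shared no stretch of 50 bases with another, 51 (33.8%) were marked, and at the matching 129 lone genes 49 (38.0%). Where up to 50% of the stretches were shared, 2 of 17 clustered and 0 of 8 lone genes were marked. Where more than 50% were shared, 0 of 13 clustered and 0 of 6 lone genes were marked. These shared promoters also had lower CpG ratios, with medians of 0.433 and 0.483 against 0.620 in clustered genes without shared stretches, and the effect of the 2 properties cannot be told apart from these counts. Promoters were available for 181 of the 211 clustered and 143 of the 175 lone genes.

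Marked genes had more CG pairs at the promoter than unmarked genes in every set. The median CpG ratio was 0.583 in clustered, 0.684 in lone and 0.595 in other autosomal genes. It was 0.647 in marked and 0.529 in unmarked clustered genes, 0.818 and 0.568 in lone genes, and 0.826 and 0.405 in other genes. The gap between marked and unmarked genes was narrower in clustered genes than in the other sets. At a ratio of 0.6 and over, the share marked in knockout-GFP 2 was 20.5% of 88 clustered genes (95% interval 12.6 to 30.4), 28.4% of 81 lone genes and 33.7% of 8015 others. In control-GFP 1 the same shares were 34.1% (24.3 to 45.0), 33.3% and 30.4%. The share of other genes thus lay above the interval of clustered genes in knockout-GFP 2 and inside it in control-GFP 1. In knockout-GFP 1 they were at 4.55%, against 13.6% of lone and 16.4% of other genes.

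Between ratios of 0.3 and 0.6, clustered genes were marked in 8.33% of 72 cases in knockout-GFP 2 and 18.1% in control-GFP 1, against 9.42% and 10.7% of other genes. Below 0.3, 0 of 21 were marked in knockout-GFP 2 and 2 of 21 (9.52%) in control-GFP 1. Of 5071 other genes below 0.3, 1.64% were marked in knockout-GFP 2 and 1.79% in control-GFP 1. The exact interval of the clustered share in control-GFP 1 reached from 1.17% to 30.4% and held the share of other genes. Across the 25 clusters with 3 or more promoters, the share of members marked and the median CpG ratio had a Pearson correlation of 0.254 and a Spearman correlation of 0.290. This is a description only, since all clusters were read in the same 6 libraries.

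**Figure D4:**
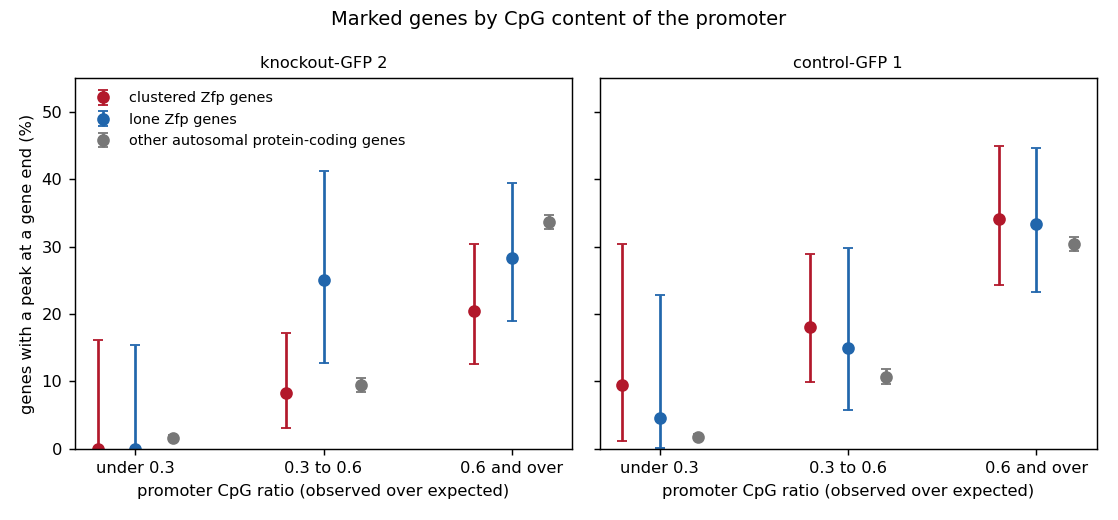
Share of genes marked (%) in knockout-GFP 2 (left) and control-GFP 1 (right) by the CpG ratio of the promoter, for clustered Zfp, lone Zfp and other autosomal protein-coding genes; bars are exact 95% intervals for counting error. At a ratio of 0.6 and over, clustered genes stand at 20.5% in knockout-GFP 2 and 34.1% in control-GFP 1, and other genes at 33.7% and 30.4%.

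The peaks themselves sat at gene starts. The 62 marked clustered genes had 100 pairs of a gene and a peak in the 6 libraries, made by 94 peaks. Of these pairs 81 lay at the end that holds the start, 4 at the far end, and 15 belonged to genes without a listed strand. The midpoint lay within 250 bp of the nearest listed start in 64 of 85 pairs, and the median midpoint was at 12.5 bp, where positive values are inside the gene, against −52.25 bp in lone genes. Median peak width was 250 bp in clustered and 232.5 bp in lone genes. In lone genes 77 of 90 pairs lay within 250 bp of a start and 0 at the far end. Among pairs with a listed start, 8 of 85 clustered and 0 of 90 lone pairs lay more than 1500 bp from it, and these differences were not tested.

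The peaks of clustered genes ranked below the median gene-end peak in the libraries that marked most of them. Their median score percentile was 40.7 in knockout-GFP 2 and 37.7 in control-GFP 1, where that of all gene-end peaks was 51.9 and 54.0. In knockout-GFP 1 it was 51.3, against 53.2 over all gene-end peaks. The peaks of lone genes ranked at medians of 59.7 in knockout-GFP 1, 50.5 in knockout-GFP 2 and 64.1 in control-GFP 1. In control-GFP 1, where clustered and lone genes were marked nearly equally often, the clustered peaks thus had the lower scores.

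**Figure D5:**
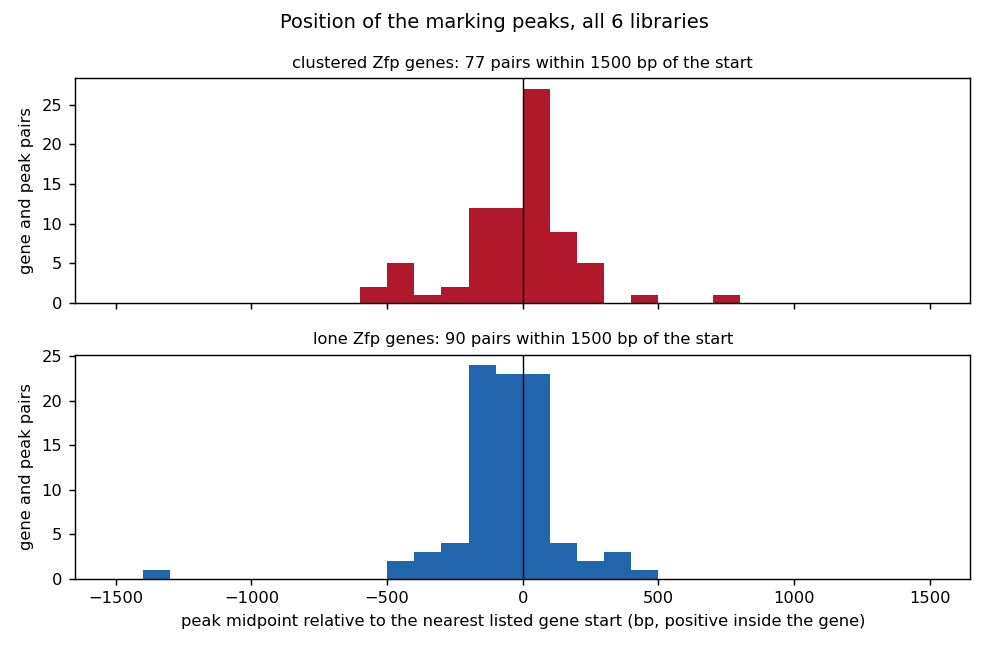
Distance of the midpoint of each marking peak from the nearest listed gene start (bp, positive inside the gene) for clustered (top) and lone (bottom) Zfp genes, in bins of 100 bp over all 6 libraries; 8 clustered pairs lie beyond the axis. Most peaks of both sets lie within 250 bp of a start.

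Genes close to another gene end were marked more often, over all protein-coding genes as among Zfp genes. Among clustered genes with another protein-coding gene end within 1000 bp, 12 of 28 (42.9%) were marked, against 50 of 183 (27.3%) without. Among lone genes the shares were 20 of 27 (74.1%) and 38 of 148 (25.7%), and over all protein-coding genes they were 40.4% of 5426 and 19.2% of 16461. Genes with a close gene end also had higher median CpG ratios. These were 0.714 against 0.540 in clustered, 0.829 against 0.629 in lone and 0.751 against 0.469 in all genes. A peak near 2 gene ends can belong to either gene, and 10 of the 62 marked clustered genes were marked by a peak that also touched another gene end, in 8 cases that of another Zfp gene. Without such neighbours, clustered and lone genes were marked about equally often. Clustered genes with a neighbouring Zfp start within 10 kb were marked in 5 of 12 cases (41.7%), those at 10 to 30 kb in 35 of 105 (33.3%), and those at 30 to 100 kb in 22 of 94 (23.4%). Their median CpG ratios fell in the same order, at 0.673, 0.603 and 0.520. Distance and CpG content cannot be told apart from these counts. At the edge of the rule, Zfp968 and Zfp965 just inside it, at 97.991 kb from each other, had no peak, and neither had Zfp846 at 86.231 kb or Zfp560 at 83.182 kb. Just outside it, Zfp263 at 103.091 kb was marked in 3 libraries, while Zfp937 and Zfp120 at 103.67 kb and Zfp141 at 106.011 kb were not marked.

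Several clustered genes have known roles, and they are given here for that reason, with their values known. Zfp809, which silences murine leukaemia proviruses by binding their primer binding site, was marked in knockout-GFP 2 with a score of 8.09 and in control-GFP 1 with a score of 3.92. Its neighbour Zfp810 was marked in the same libraries, with scores of 5.82 and 3.92. Zfp110, which encodes a protein that interacts with a neurotrophin receptor, was marked in knockout-GFP 2 (score 2.33) and control-GFP 1 (score 4.499). Zfp24, known in mouse for a role in myelination, was marked in knockout-GFP 2 only (score 6.95), and Zfp282 in control-GFP 1 only (score 4.08). Zfp445, which helps to maintain genomic imprints, and Zfp746, which encodes the Parkin-interacting repressor PARIS, had no peak in any library. None of these genes had a pattern that followed the groups.

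Lone genes were marked in up to 4 libraries as well. The 5 lone genes marked most, in 4 libraries each, were Zfp654, Zfp317, Zfp143, Zfp706 and Zfp513, and their mean score percentiles ran from 37.7 to 75.6. Zfp143, which encodes a transcriptional activator found at many promoters, was marked in knockout-Acsl4 2 (score 1.36), knockout-GFP 1 (9.11), knockout-GFP 2 (14.9) and control-GFP 1 (13.0). Zfp654 had a score of 5.18 in knockout-GFP 1 and 20.9 in knockout-GFP 2, against 44.6 in control-GFP 1 and 2.62 in control-GFP 2.

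The partners of KRAB repression were marked in larger part than the Zfp genes themselves. Of 26 such genes, 14 were marked in at least 1 library, against 62 of 211 clustered Zfp genes and 24.5% of all genes, and their promoters had a median CpG ratio of 0.907. Of other autosomal genes with a ratio of 0.6 and over, 44.5% were marked in at least 1 library. By library 0 and 2 of the 26 were marked in knockout-Acsl4 islets, 7 and 12 in knockout-GFP islets and 9 and 2 in control-GFP islets. The 3 marked in 4 libraries were Trim24, a relative of Trim28, and Cbx3 and Cbx5, which bind methylated histone H3. Of all genes 1.62% were marked in 4 or more. Trim28, the corepressor of KRAB proteins, was marked in knockout-GFP 2 (score 6.79) and control-GFP 1 (score 4.23). Setdb1, the histone methyltransferase, and Cbx1 had no peak. Daxx, a histone chaperone, Hdac2, a histone deacetylase, and Morc2a, an ATPase that works with the HUSH silencing complex, were marked in both knockout-GFP libraries and control-GFP 1. As over all genes, the knockout-Acsl4 libraries lay below the knockout-GFP libraries and the control-GFP libraries lay far apart.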

How the data were processed

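ATAC-seq peak lists of 6 mouse islet libraries were used, 2 in each of 3 groups assigned by title. The value of each peak, which the authors deposited in 1 list per library without a header, was taken as a −log10 q-value. This reading is inferred, since each list starts just above 1.30, which corresponds to a q of 0.05. The submitters' processing notes name MACS2 2.1.1, BWA 0.7.10, SAMtools, Trimmomatic and FastQC with neither roles nor settings, and the human builds hg38 and GRCh38. Because 67.2% to 75.5% of peaks in both knockout-GFP libraries and control-GFP 1 lay at mouse gene ends, positions were read as GRCm38. In the other lists that share was 5.29% to 35.8%, so this ground is weaker there. Positions are printed 1-based. The handling of duplicate reads, of reads placed at several sites and of the Tn5 shift is not given in the labels, and reads placed at several sites bear on duplicated genes. Depth is unknown, and the number of peaks cannot replace it. Knockout-Acsl4 2 had 5874 peaks and marked 345 genes, while knockout-GFP 1 had 2206 peaks and marked 1795 genes.

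Genes came from a RefSeq table of GRCm38.p6 and promoters from a RefSeq table of that build; protein sequences were not used here. A gene was marked where a peak overlapped 1000 bp around either end by at least 1 bp. Starts within 100 kb of each other were chained into clusters. Presence of a called peak is not a count, so no model was fitted and no p-value is given; shares have exact Clopper-Pearson 95% intervals for counting error only. CpG ratios, motifs and stretches of 50 bases found at another promoter were taken from the promoter table. The calculation was tested on simulated peaks with known marks.

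The members, gene lists and motifs were chosen with earlier results of these data known. Genes are named when marked in 4 or more libraries, when both libraries of a group and no library of another mark them, when marked in the 6 largest clusters or bounding a cluster, as the 5 lone genes or the KRAB partners marked most, or, as said in the text, after their values were seen. Alternatives were windows of 500 and 3000 bp, the better 50% of each list, lists of 525 peaks, neighbour distances of 50 and 200 kb, the gene start only, lone genes over 500 kb from any other, leaving out regions called in all 6 libraries, and leaving out each library. The alternative of libraries with over 60% of peaks at gene ends was chosen after seeing the data. Python 3.11.15, pandas 2.3.3, NumPy 2.4.6, SciPy 1.17.1 and matplotlib 3.10.9 were used.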

Additional observations from a re-analysis of the deposited data

How the results depend on the processing

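The mean difference of clustered and lone shares, −2.32 points, stayed negative in every setting tried. Without 1 library each it ran from −2.75 to −1.52. In the other settings it ran from −4.03, with lone genes over 500 kb from any other, to −0.450 at a neighbour distance of 50 kb. In the 3 libraries with over 60% of peaks at gene ends, a setting chosen after seeing the data, it was −3.65. Clustered genes were higher in 1 of 6 libraries with the better 50% of each list, with equal list lengths and at 50 or 200 kb. With the better 50% of each list, 1 clustered gene was marked in 4 or more libraries in place of 2, 0 in place of 1 in both control-GFP and neither knockout-GFP library, and 2 in place of 4 in both control-GFP and neither knockout-Acsl4 library. With lists of 525 peaks these counts were 0, 0 and 0, and 1 gene in place of 4 was marked in both knockout-GFP and neither knockout-Acsl4 library; a window of 3000 bp gave 7 for the last. Shorter lists hold fewer peaks by construction, and the cause of the rise at 3000 bp was not tested. Leaving out 1 library each, the count in 4 or more libraries ran from 0 to 2, the count in both knockout-GFP and neither control-GFP library from 0 to 8, and the opposite from 1 to 24. The count in both knockout-Acsl4 and neither knockout-GFP library ran from 0 to 2, and the opposite from 4 to 29. That in both knockout-Acsl4 and neither control-GFP library ran from 0 to 3, and the opposite from 4 to 49. A group of which 1 library is left out needs a peak in the other only. All these ranges were counted for clustered genes only, without the same counts over all genes. No paired analysis was possible because the labels do not tie replicate numbers across groups and the results come from counts without a test. Depth is unknown, so a gene without a called peak is not shown to be closed.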

Other observations

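Peaks were also counted over whole clusters, genes and the DNA between them. The 49 cluster spans covered 7753.79 kb and held 1 and 15 peaks in the knockout-Acsl4 libraries, 18 and 43 in the knockout-GFP libraries and 60 and 6 in the control-GFP libraries. That is 0.129 and 1.93 peaks per Mb in knockout-Acsl4, 2.32 and 5.55 in knockout-GFP and 7.74 and 0.774 in control-GFP islets. They made up 0.196% and 0.268% of autosomal peaks in knockout-Acsl4, 0.827% and 1.02% in knockout-GFP and 1.39% and 0.374% in control-GFP islets. The part of autosomal DNA that the spans cover was not calculated, so these values show neither an excess nor a lack of peaks. Of the peaks inside the spans, 1 and 11 lay away from every protein-coding gene end in knockout-Acsl4, 5 and 10 in knockout-GFP and 10 and 2 in control-GFP islets. In knockout-Acsl4 1 that was the single peak inside clusters, against 63.3% of all autosomal peaks of that list, and in knockout-Acsl4 2 it was 73.3%, against 94.5%. In knockout-GFP islets it was 27.8% in library 1, against 32.2% of all autosomal peaks, and 23.3% in library 2, against 24.2%. In control-GFP islets it was 16.7% in library 1, against 28.8%, and 33.3% in library 2, against 78.0%.

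Other protein-coding genes lay within or across the cluster spans in 36 cases. Of these, 10 (27.8%) were marked in at least 1 library, close to the 29.4% of the clustered Zfp genes and the 24.5% of all protein-coding genes. Among the 10 were Fiz1, Zscan22, Xrcc1, a DNA repair factor, and Naa60, an N-terminal acetyltransferase. Fiz1 was touched by peaks that also marked Zfp524, and Naa60 by peaks that also marked Zfp174. In the cluster from Zfp428 to Zfp575 on chromosome 7 neither Zfp gene was marked, while 3 of the 4 other genes there were. These genes were named after their values were seen.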
